A study of Mus musculus with 15 samples.

Results

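The genes described here are the components of Toll-like receptor and NF-kB signalling on the array, 39 genes among 28905 distinct gene names. They were chosen by deposited gene symbol: the Toll-like receptor (Tlr) and IRAK kinase families, the co-receptors Cd14 and Ly96, the adaptors, Traf6, the NF-kB subunits with their inhibitors, the NOD and inflammasome genes, and Tnf. Where a gene had several probes, the brightest stood for it, so 63 probes gave 39 values per array. Expression in the anterior prostate of 15 mice was read on single-colour Illumina BeadArrays, 1 array per mouse, and the labels give no treatment apart from castration. Mutant castrated mice (n = 6) and mutant intact mice (n = 6) carried 1 copy of a knock-in allele written CE2 together with 2 copies of a floxed allele. Control intact mice (n = 3) carried the same CE2 allele (CE2/+) and no floxed allele, so every animal lacked 1 normal copy at the knock-in locus. CE2 encodes a tamoxifen-inducible Cre recombinase that is active in prostate epithelium. Whether and when it was induced, the ages of the mice and the interval after castration are not stated in the labels. Castrated replicates 4, 5 and 6, in the order of the samples, had mouse IDs above 4000, and all other mice had lower IDs. The labels do not say what the numbers stand for. No castrated control mice were analysed here, so castration was compared within the mutant genotype alone.

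Toll-like receptors recognise microbial molecules and products of damaged cells, at the cell surface or in endosomes. Ligand binding recruits adaptor proteins such as Myd88 and Ticam1. These act through IRAK kinases and the ubiquitin ligase Traf6 on the kinases that mark the IkB inhibitors for degradation. The freed NF-kB dimers then enter the nucleus and transcribe inflammatory genes, several of which, such as Nfkbia and Tnfaip3, encode inhibitors of the same pathway. Macrophages and other myeloid cells express many of these genes strongly, and epithelial cells express some of them.

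Values are log2 of the authors' processed intensities, and a log2 fold change of 1 is a doubling. An array's background limit was the 95th percentile of 1475 olfactory and vomeronasal receptor probes, at log2 intensities of 7.27 to 7.38, and a gene was tested if it exceeded the limit on at least 3 arrays. Of the 39 genes 34 were tested. The other 5, Tlr9, Tlr11, Irak1bp1, Nlrp3 and Rel, lay at background in all groups, with means between 6.99 and 7.20. Another 6, namely Tlr1, Tlr8, Tlr13, Ticam2, Nod2 and Tnf, were above the limit on 0 of 3 control arrays and entered the test through mutant arrays alone, so counts over the tested genes are a description only. A gene was called higher or lower at an adjusted p under 0.05 in limma (two-sided, Benjamini-Hochberg over all 16670 tested genes).

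The tissue label was checked against marker genes. The epithelial keratins Krt8 and Krt18 and the cadherin Cdh1 were above background on every array, with group means of at least 11.40. The prostate secretory gene Pbsn lay at background on all 12 mutant arrays, between 6.89 and 7.16, against 11.83 ± 0.05 in control (SD, n = 3). Mutant intact replicate 1 stood apart from the other mutant intact arrays. The summed intensity of 15 macrophage and monocyte markers was 144150 on that array, where the 5 remaining mutant intact arrays had 16151 to 31691, and 14 of the 15 were highest there. The sum lay between 23326 and 35713 on mutant castrated arrays and between 5283.2 and 6621.1 on control arrays. Seminal vesicle transcripts were uneven within groups, high on mutant intact replicates 2 and 3 and on control replicates 2 and 3. Their sums there were 97036 to 141970. Castrated replicates 3 and 6 had sums of 20137 and 21716, against 897.66 to 4014.8 on the other castrated arrays, and stayed in the fit without those 4. In the comparisons with control, counts of called Toll-like receptor and NF-kB genes are given with and without mutant intact replicate 1 and the 4 intact arrays. The genes whose call rests on those arrays are named. Counts and medians of each marker and pathway list are given with all arrays only.

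Between mutant intact and control prostate, most of the tested Toll-like receptor and NF-kB genes differed, nearly all upward. Mutant intact prostate had 15.2-fold more Tlr2 signal and 15.03-fold more Cd14 signal, and NF-kB inhibitor genes, the subunit Relb and the cytokine Tnf were also at least 2-fold higher. Of the 34 tested genes 23 were higher and 2, Irak1 and Ticam1, were lower, and 9 were not called. Of all tested genes 43.7% were called in this comparison, 18.3% higher and 25.4% lower. The median log2 fold change of the 34 was 0.70, against -0.04 over all tested genes. At least 2-fold higher were 12 of the 34, against 7.98% of all tested genes. Tlr13 was among the 12, but its log2 fold change was 0.88 without mutant intact replicate 1. Without mutant intact replicate 1 the counts were 20 higher and 2 lower, since Irak2, Nod1 and Tirap lost their calls. Without the 4 intact arrays high in seminal vesicle transcripts, a fit with a lone control array whose spread is taken to equal that of the other groups, they were 15 higher and 1 lower.

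**Figure D1:**
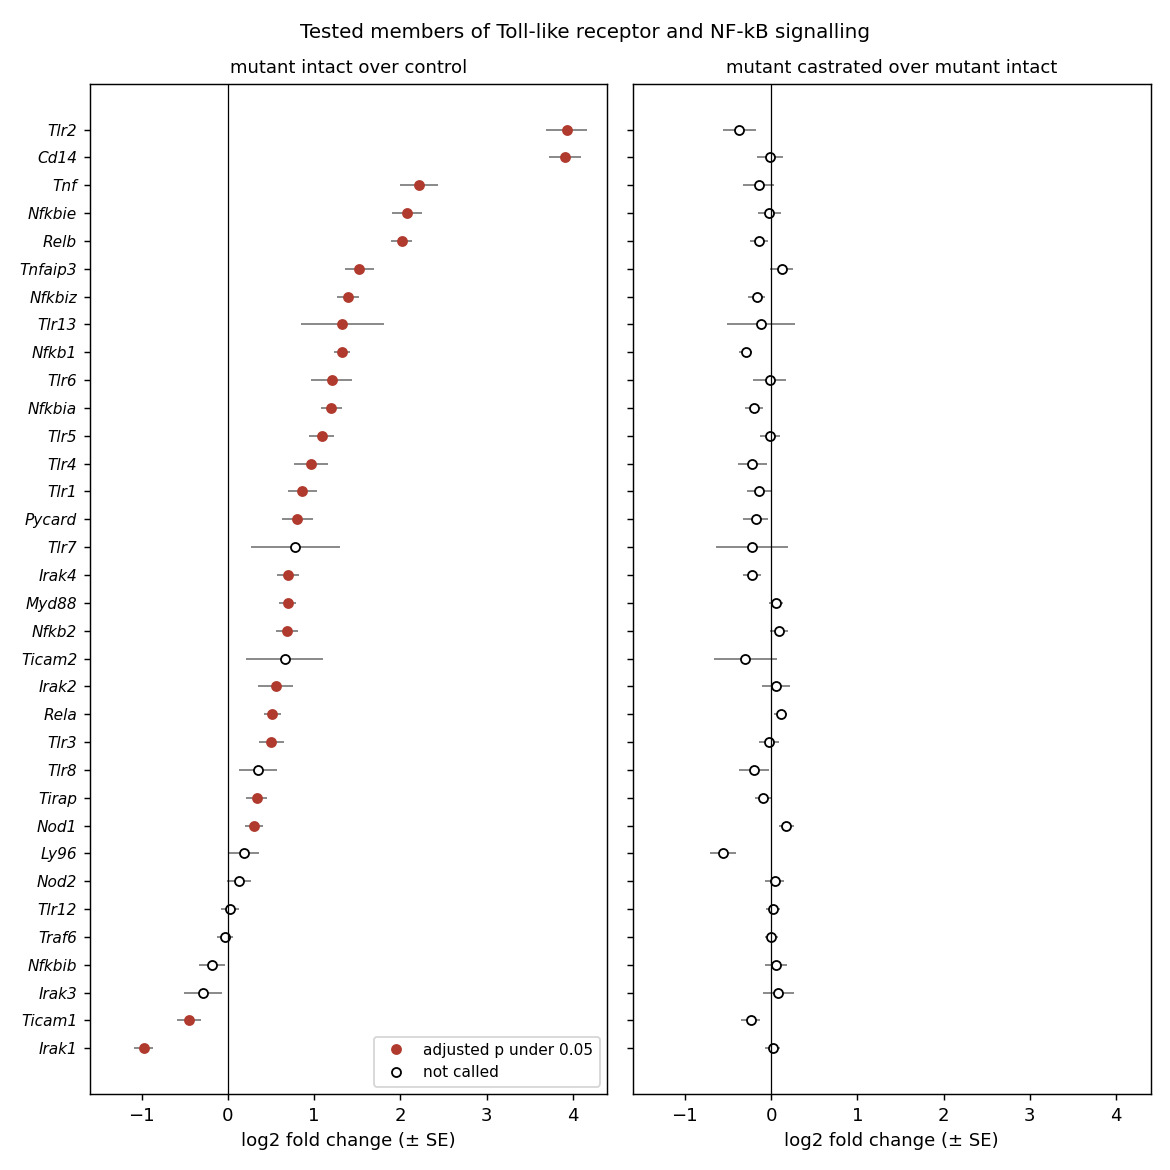
Log2 fold change of each of the 34 tested genes (points, with bars for the SE), mutant intact over control on the left and mutant castrated over mutant intact on the right. Filled points mark an adjusted p under 0.05. On the left 23 filled points lie to the right of 0 and 2 to the left, whereas none on the right is filled.

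Tlr2, the surface receptor for bacterial lipoproteins, had the largest change of the receptors. Its log2 intensity ran from 10.96 to 11.98 (median 11.78) in mutant castrated and from 11.44 to 12.36 (median 12.11) in mutant intact prostate, and was 8.05, 8.23 and 7.88 on the 3 control arrays. All 12 mutant arrays lay above all 3 controls, by more than 2 log2 units. The log2 fold change in mutant intact over control was 3.93 (SE 0.23, limma adjusted p = 5.73e-09), and it was 3.98 without mutant intact replicate 1.

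The partners of Tlr2 changed less. Tlr6, which pairs with Tlr2 to bind diacylated lipoproteins, ran from 8.38 to 8.73 (median 8.51) in mutant castrated and from 8.08 to 9.46 (median 8.37) in mutant intact prostate, and was 7.14, 7.73 and 7.14 in control. The mutant and control ranges did not overlap, and the highest value was that of mutant intact replicate 1. The log2 fold change of Tlr6 was 1.20 (SE 0.24, limma adjusted p = 7.32e-04) with that array and 1.02 without it. A second, dimmer Tlr6 probe was not called (0.24, limma adjusted p = 0.124). Tlr1, the other partner, averaged 7.92 ± 0.30 in mutant castrated and 8.06 ± 0.24 in mutant intact prostate (SD, n = 6 each), and was not above background on any control array, so that it was at least 1.61-fold higher in mutant intact prostate (limma adjusted p = 6.54e-04). Without the 4 intact arrays high in seminal vesicle transcripts Tlr1 was not called (log2 fold change 0.82, limma adjusted p = 0.0577).

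Among the receptors for other surface ligands, Tlr5, which binds bacterial flagellin, ran from 9.09 to 9.57 (median 9.39) in mutant castrated and from 9.02 to 9.71 (median 9.34) in mutant intact prostate, against 8.44, 8.37 and 8.01 in control. The mutant groups overlapped each other fully and lay above every control. The log2 fold change of Tlr5 in mutant intact over control was 1.09 (SE 0.15, limma adjusted p = 2.37e-05). Tlr4, the receptor for lipopolysaccharide, averaged 9.20 ± 0.31 in mutant castrated and 9.42 ± 0.35 in mutant intact prostate (SD, n = 6 each), against 8.45 ± 0.12 in control (n = 3). It rose by 0.97 on the log2 scale (SE 0.20, limma adjusted p = 0.00113), and its second probe rose by 0.94.

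The co-receptors of Tlr4 went separate ways. Cd14, which hands lipopolysaccharide to Tlr4 and also assists Tlr2, ran from 12.31 to 12.78 (median 12.53) in mutant castrated and from 12.12 to 13.08 (median 12.60) in mutant intact prostate, against 8.64, 8.83 and 8.46 in control. All mutant arrays lay above all controls. Its log2 fold change was 3.91 (SE 0.19, limma adjusted p = 6.91e-10), and 3.80 without mutant intact replicate 1. Ly96, the protein that binds lipopolysaccharide together with Tlr4, was well above background everywhere, at 10.52 ± 0.29 in mutant intact (n = 6) and 10.33 ± 0.13 in control (SD, n = 3), and was not called (log2 fold change 0.18, SE 0.18, limma adjusted p = 0.447).

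The endosomal receptors, which bind nucleic acids, had lower group means than Tlr2, Tlr4 and Tlr5. For Tlr7, Tlr8 and Tlr13, mutant intact replicate 1 lay far above the other arrays of its group. Tlr3, which binds double-stranded RNA, averaged 7.66 ± 0.26 in mutant castrated and 7.68 ± 0.14 in mutant intact prostate (SD, n = 6 each), near the background limit, against 7.18 ± 0.24 in control, and rose by 0.50 on the log2 scale (SE 0.15, limma adjusted p = 0.0112). Tlr3 was not called without control replicate 1, without control replicate 3, or without the 4 arrays high in seminal vesicle transcripts (0.62, limma adjusted p = 0.0884). Tlr13, a mouse receptor for bacterial ribosomal RNA, ran from 8.11 to 8.72 (median 8.48) in mutant castrated and from 7.80 to 10.81 (median 8.20) in mutant intact prostate, with 7.34, 7.12 and 7.26 in control. Control values were all at background and every mutant value lay above them. Tlr13 was at least 2.29-fold higher in mutant intact prostate (limma adjusted p = 0.0372), and its log2 fold change was 1.33 with mutant intact replicate 1 and 0.88 without it (limma adjusted p = 0.00133). The call was made in 18 of 28 fits and was lost without any 1 of the 3 control arrays, without mutant intact replicate 3 or 4, with only these 2 groups in the fit, without a filter on dim probes, with probes averaged, without the castrated animals of IDs above 4000, and without the 4 arrays high in seminal vesicle transcripts (1.42, limma adjusted p = 0.276). The second Tlr13 probe was not called (0.61, limma adjusted p = 0.115).

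Tlr7 and Tlr8, receptors for single-stranded RNA, were not called. Tlr7 measured 10.50 in mutant intact replicate 1 and 7.22 to 8.24 on the other 5 mutant intact arrays, against 7.34 to 7.38 in control. Its log2 fold change was 0.78 (SE 0.51, limma adjusted p = 0.236), or 0.31 without that array. Tlr8 measured 8.32 in the same replicate and 7.02 to 7.33 on the other 5. Away from replicate 1, Tlr8 lay near background. Tlr7 was above every control on all 6 mutant castrated arrays (7.58 to 8.29) and on all mutant intact arrays but replicate 5 (7.22). Tlr12, a mouse receptor for a protozoan profilin, stayed within 7.05 and 7.45 on all 15 arrays, with a log2 fold change of 0.03 (limma adjusted p = 0.859). Tlr9, the receptor for unmethylated DNA, and Tlr11 lay at background.

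**Figure D2:**
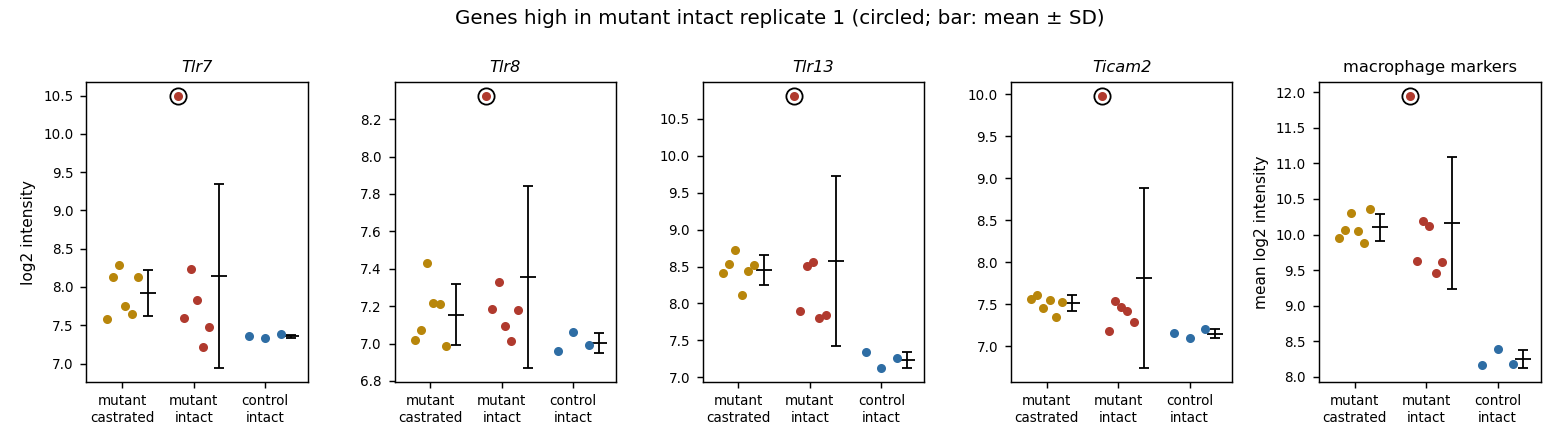
Log2 intensity per array (points; bars give the mean and SD) of Tlr7, Tlr8, Tlr13 and Ticam2, and the mean log2 intensity of the macrophage and monocyte markers, in mutant castrated, mutant intact and control prostate. The circled point is mutant intact replicate 1, the highest of the 15 arrays in each panel.

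Markers of several cell types also differed between mutant intact and control prostate, those of macrophages among them. The counts are to be read against all tested genes, of which 18.3% were higher and 25.4% lower. Markers at background in control could enter the test through mutant arrays alone, so these counts and medians are a description only. Of 15 macrophage and monocyte markers 13 were tested. Of the 13, 12 were higher and 0 lower in mutant intact than in control prostate, with a median log2 fold change of 2.34. The myeloid integrin Itgam and the monocyte receptor Ccr2 were too dim to be tested, and Adgre1, a macrophage surface receptor, was above background on all control arrays and rose by 1.63 on the log2 scale. Of 6 tested neutrophil markers 3 were higher, while the granule genes Mpo, Ngp and Mmp8 were too dim to be tested, and the neutrophil list summed to 7255.1 to 19210 in mutant castrated, 3359.9 to 16381 in mutant intact and 1221.5 to 1505.7 in control. All 5 basal epithelial markers were higher, with a median log2 fold change of 2.73 and sums of 31049 to 55700 in mutant castrated, 34570 to 57047 in mutant intact and 4438.4 to 6742.3 in control. Of 9 smooth muscle and stroma markers 5 were lower and 1 was higher (median -1.38), and of 8 tested T and NK cell markers 4 were higher. Of 5 mast cell markers 0 were called (median -0.69). Called higher were 1 of 5 tested dendritic cell markers, 1 of 4 tested B and plasma cell markers and 3 of 6 markers of all leukocytes. Of 9 luminal epithelial markers 3 were higher and 2 lower, and of 5 tested endothelial markers 2 were higher and 1 was lower. In bulk tissue, more cells of a type and more RNA per cell cannot be told apart, and the part of any of these cell types in the values of Toll-like receptor and NF-kB genes was not tested.

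Of the adaptors, Myd88, used by all Toll-like receptors but Tlr3, was bright and rose slightly. It averaged 11.93 ± 0.04 in mutant castrated and 11.87 ± 0.20 in mutant intact prostate (SD, n = 6 each), against 11.18 ± 0.03 in control (n = 3), which is higher by 0.69 on the log2 scale (SE 0.10, limma adjusted p = 4.40e-05). A dimmer Myd88 probe was not called in this comparison (0.16, limma adjusted p = 0.258). Tirap, which bridges Tlr2 and Tlr4 to Myd88, was higher by 0.34 (SE 0.12, limma adjusted p = 0.0359), a call made in 19 of 28 fits and by neither of its other 2 probes. The Tirap call was lost without control replicate 2 or 3 and without mutant intact replicate 1 (limma adjusted p = 0.055), 2, 4 or 6. It was also lost with probes averaged, with another background correction, and without the 4 arrays high in seminal vesicle transcripts (log2 fold change 0.26).

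Ticam1, the adaptor of Tlr3 and of Tlr4 in endosomes, was lower. It averaged 7.63 ± 0.25 in mutant castrated and 7.86 ± 0.17 in mutant intact prostate (SD, n = 6 each), against 8.31 ± 0.10 in control, and its log2 fold change was -0.45 (SE 0.14, limma adjusted p = 0.0142). Its second probe differed by -0.06 and was not called. The Ticam1 call was lost without control replicate 2, with probes averaged, and without the 4 arrays high in seminal vesicle transcripts (log2 fold change -0.44). Ticam2, which links Tlr4 to Ticam1, measured 9.98 in mutant intact replicate 1 and 7.18 to 7.54 in the other 5 animals of that group, against 7.09 to 7.20 in control, and was not called (limma adjusted p = 0.252).

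The kinases did not move together. Irak1, the kinase that Irak4 activates, fell. It averaged 10.28 ± 0.22 in mutant castrated and 10.26 ± 0.09 in mutant intact prostate (SD, n = 6 each), against 11.24 ± 0.09 in control, with no overlap between mutant and control arrays. Its log2 fold change was -0.98 (SE 0.11, limma adjusted p = 4.92e-06), and its other 2 probes fell by 1.21 and 1.01 on the log2 scale. Irak4, the first kinase recruited by Myd88, rose by 0.70 (SE 0.13, limma adjusted p = 4.15e-04), although neither of its 2 dimmer probes was called. Without the 4 arrays high in seminal vesicle transcripts Irak4 was not called (0.50, limma adjusted p = 0.105). Irak2 rose by 0.55 (limma adjusted p = 0.0353), with its mutant intact and control ranges overlapping, and by 0.75 by its second probe. Irak2 was called in 17 of 28 fits. Its call was lost without control replicate 2 or 3 and without any 1 mutant intact array but replicate 5 (limma adjusted p = 0.061 without replicate 1). The Irak2 call was also lost with only these 2 groups in the fit, without a filter on dim probes and without the castrated animals of IDs above 4000. Without the 4 arrays high in seminal vesicle transcripts Irak2 was not called (log2 fold change 0.26). Irak3, an inhibitory family member of myeloid cells, and Traf6 were not called. The log2 fold change of Irak3 was -0.29 (limma adjusted p = 0.305), and that of Traf6 was -0.03 (limma adjusted p = 0.808).

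Of the cytosolic sensors, Nod1, which detects bacterial peptidoglycan fragments, was 10.52 ± 0.22 in mutant castrated, 10.34 ± 0.04 in mutant intact and 10.04 ± 0.10 in control prostate (SD, n = 6, 6 and 3). Its rise of 0.30 on the log2 scale in mutant intact prostate (limma adjusted p = 0.0335) was not called without mutant intact replicate 1 (limma adjusted p = 0.0512) or 4. The Nod1 call was also lost without control replicate 1 or 3 and with another background correction. The same held without the 4 arrays high in seminal vesicle transcripts (log2 fold change 0.43). Nod2 lay near background and was not called (limma adjusted p = 0.461). Pycard, the inflammasome adaptor, rose by 0.80 (SE 0.18, limma adjusted p = 0.00206), and its second probe was also called higher. Without the 4 arrays high in seminal vesicle transcripts Pycard was not called (0.58, limma adjusted p = 0.18). Nlrp3, an inflammasome sensor, was at background in every group.

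All 4 tested NF-kB subunit genes were higher in mutant intact prostate. Relb, a subunit of the non-canonical pathway, ran from 9.54 to 10.11 (median 9.80) in mutant castrated and from 9.83 to 10.13 (median 9.94) in mutant intact prostate, against 7.958, 8.004 and 7.838 in control. Its log2 fold change was 2.02 (SE 0.12, limma adjusted p = 7.93e-09), with mutant and control ranges well apart. Nfkb1, whose product is cut to a DNA-binding subunit, ran from 10.96 to 11.28 (median 11.04) in mutant castrated and from 11.23 to 11.50 (median 11.35) in mutant intact prostate, against 9.94, 10.02 and 10.15 in control. Nfkb1 rose by 1.32 (SE 0.09, limma adjusted p = 2.18e-08), and only 1 castrated array reached the mutant intact range. A dimmer Nfkb1 probe rose less, by 0.80 (limma adjusted p = 1.41e-04). Nfkb2, the precursor subunit of the non-canonical pathway, rose by 0.68 (SE 0.13, limma adjusted p = 4.94e-04), and Rela, the main activating subunit, by 0.51 (SE 0.10, limma adjusted p = 5.34e-04). Rel, a subunit used mainly by lymphoid and myeloid cells, was at background.

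Of 5 tested inhibitor genes 4 were higher. Nfkbie, an IkB protein, ran from 9.44 to 9.74 (median 9.51) in mutant castrated and from 9.15 to 10.04 (median 9.59) in mutant intact prostate. Its control values were 7.53, 7.76 and 7.21, so that Nfkbie rose by 2.08 (SE 0.17, limma adjusted p = 1.68e-07). A dimmer Nfkbie probe rose less, by 0.68 (limma adjusted p = 3.91e-04). Tnfaip3, the ubiquitin-editing enzyme A20, ran from 9.07 to 9.67 (median 9.48) in mutant castrated and from 8.82 to 9.71 (median 9.33) in mutant intact prostate, against 7.89, 7.57 and 7.84 in control. It rose by 1.53 (SE 0.17, limma adjusted p = 3.71e-06). For both genes the mutant groups overlapped each other and neither reached the controls.

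Nfkbiz, a nuclear IkB protein that helps to induce secondary response genes, ran from 10.37 to 10.71 (median 10.61) in mutant castrated and from 10.42 to 10.91 (median 10.80) in mutant intact prostate, against 9.59, 9.17 and 9.26 in control, and rose by 1.39 (SE 0.12, limma adjusted p = 3.72e-07). Nfkbia, which holds NF-kB in the cytoplasm, ran from 11.47 to 11.92 (median 11.71) in mutant castrated and from 11.65 to 12.22 (median 11.88) in mutant intact prostate, against 10.66, 10.68 and 10.75 in control, and rose by 1.20 (SE 0.12, limma adjusted p = 1.50e-06). Both genes were higher on every mutant array than on any control array. The second Nfkbia probe was not called (0.16, limma adjusted p = 0.402). Nfkbib, a further IkB protein, measured 7.86 ± 0.16 in mutant intact and 8.04 ± 0.29 in control and was not called (limma adjusted p = 0.345).

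Tnf, the inflammatory cytokine that both induces NF-kB and is induced by it, ran from 8.64 to 9.77 (median 9.09) in mutant castrated and from 8.88 to 9.86 (median 9.27) in mutant intact prostate, against 6.94, 7.19 and 7.12 in control. The control values were all at background, and every mutant array was above it. Tnf was at least 3.80-fold higher in mutant intact prostate (limma adjusted p = 1.05e-06), and its second probe rose by 2.01 on the log2 scale.

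**Figure D3:**
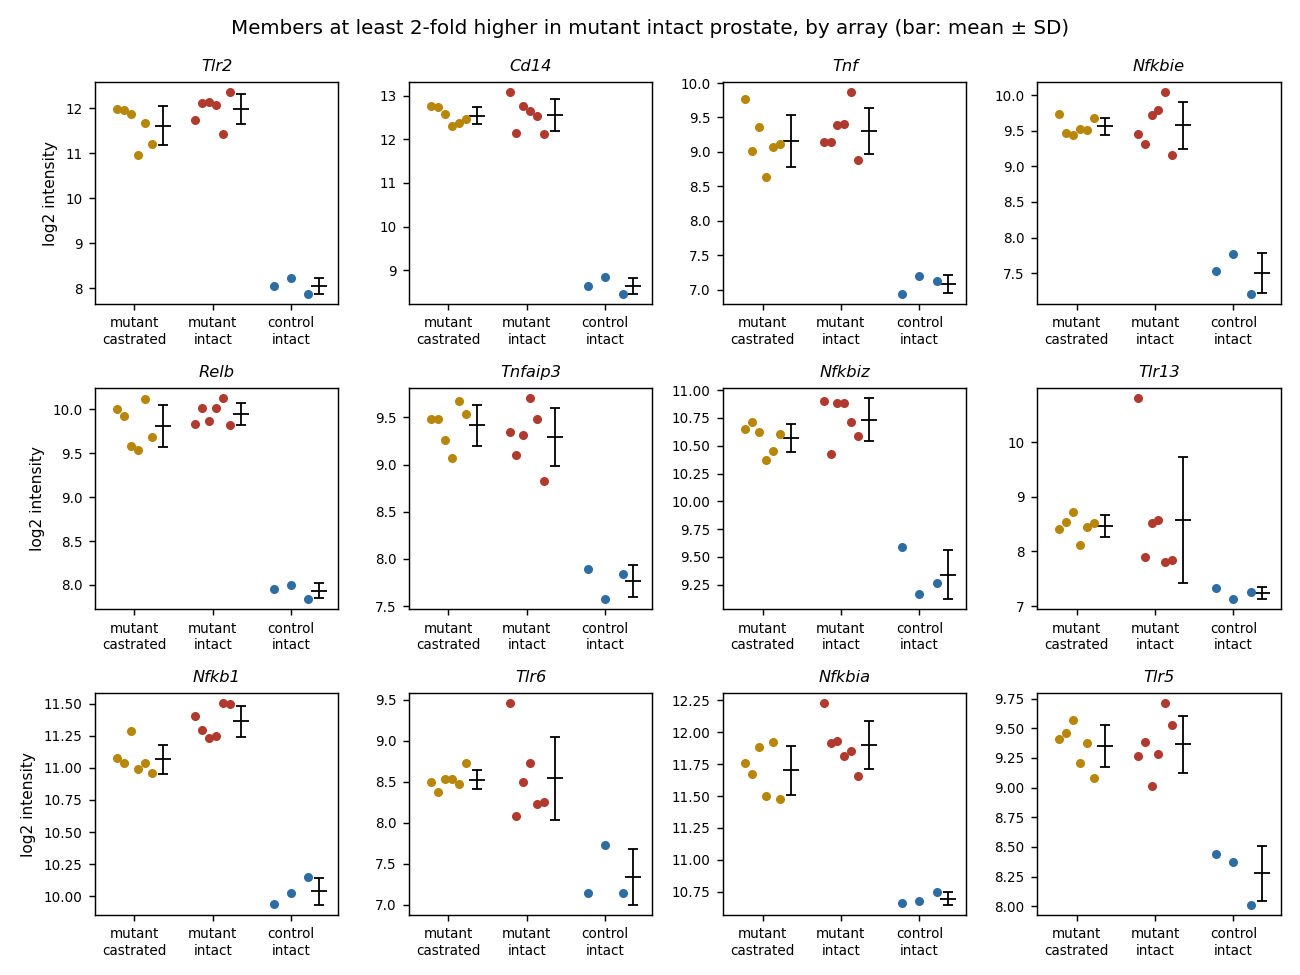
Log2 intensity per array (points; bars give the mean and SD) of the 12 genes that were at least 2-fold higher in mutant intact than in control prostate, in mutant castrated, mutant intact and control mice. Each panel has its own axis, which does not start at 0. In every panel all 12 mutant arrays lie above the 3 controls. The genes were chosen for a called difference of at least 2-fold, so a gap between mutant intact and control arrays largely follows from the choice. Tlr13 and Tlr6 have 1 mutant intact array far above the rest.

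The promoters of the genes that rose were read for NF-kB binding motifs, because several of these genes are textbook NF-kB targets. A degenerate kB consensus and a second motif, which reads GGG, any 2 bases and TTTCC, were searched on both strands. The second is not a subset of the first. RefSeq promoter windows of GRCm38.p6 were used, from 250 bases before to 50 after the start site, and 31 of the 39 genes had such a window. The consensus was found in 9 of the 31 (29%) and in 9.55% of 27025 genes. The second motif was found in 5 of those 9, which is 5 of the 31 (16.1%), and in 1.89% of genes. Of 18 genes with a window that were higher in mutant intact prostate 6 held the consensus. The other matches were in Irak1, which was lower, and in Rel and Nlrp3, which lay at background. No match was found in the windows of Tnf, which rose by 2.22 on the log2 scale, or of Tlr13, Tlr6 and Tlr5. Tlr4, Cd14, Relb, Nfkb1 and Nfkbiz, which also rose, had no window. The 4 windows below belong to the genes with a match that rose most, and capitals mark the matches. Tlr2 lies at chr3:83841559-83841858 on the minus strand with matches beginning 173 and 8 bases before the start. Nfkbie lies at chr17:45555450-45555749 on the plus strand with a match beginning 106 bases before it. The Tnfaip3 window at chr10:19015361-19015660 on the minus strand has matches beginning 125 and 12 bases before it, and that of Nfkbia at chr12:55492598-55492897 on the minus strand has 1 beginning 29 bases before it.
Tlr2: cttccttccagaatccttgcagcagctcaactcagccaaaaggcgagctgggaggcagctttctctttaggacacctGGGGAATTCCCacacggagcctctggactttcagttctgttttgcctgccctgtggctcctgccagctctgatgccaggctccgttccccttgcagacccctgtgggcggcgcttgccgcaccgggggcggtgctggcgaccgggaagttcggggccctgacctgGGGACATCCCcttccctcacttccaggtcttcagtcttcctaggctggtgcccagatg
Nfkbie: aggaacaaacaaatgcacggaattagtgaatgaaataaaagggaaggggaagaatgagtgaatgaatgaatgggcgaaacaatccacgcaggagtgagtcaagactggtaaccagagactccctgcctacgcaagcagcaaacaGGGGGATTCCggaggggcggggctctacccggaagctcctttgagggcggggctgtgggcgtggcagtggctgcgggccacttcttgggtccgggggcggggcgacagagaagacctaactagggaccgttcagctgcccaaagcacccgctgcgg
Tnfaip3: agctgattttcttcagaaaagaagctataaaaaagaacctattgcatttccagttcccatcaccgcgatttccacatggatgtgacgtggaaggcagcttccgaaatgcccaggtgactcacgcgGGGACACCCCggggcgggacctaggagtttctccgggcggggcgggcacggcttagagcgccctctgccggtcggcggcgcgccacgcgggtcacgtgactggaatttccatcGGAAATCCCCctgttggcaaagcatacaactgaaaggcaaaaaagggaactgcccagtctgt
Nfkbia: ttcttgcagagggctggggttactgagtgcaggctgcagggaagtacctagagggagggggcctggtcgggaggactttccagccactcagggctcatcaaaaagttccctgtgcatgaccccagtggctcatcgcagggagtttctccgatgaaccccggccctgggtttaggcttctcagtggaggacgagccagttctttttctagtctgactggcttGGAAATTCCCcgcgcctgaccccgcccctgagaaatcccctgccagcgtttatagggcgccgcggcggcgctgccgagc
The log2 fold changes of these 4 genes in mutant intact over control were 3.93, 2.08, 1.53 and 1.20. A second Tnfaip3 window had no match. A match is a stretch of letters and shows no binding.

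Other genes of the pathway were read as lists, and NF-kB target genes and inflammasome genes had the highest medians. Their counts are to be read against all tested genes, of which 18.3% were higher and 25.4% lower. List genes given with an "at least" fold, such as Cxcl1, were above the background limit on no control array. They entered the test through mutant arrays alone, so counts and medians of the lists are a description only. Of 28 tested NF-kB targets 17 were higher in mutant intact prostate and 1, Traf1, was lower, with a median log2 fold change of 1.35. Lcn2, an iron-sequestering antimicrobial protein, was 25.7-fold higher, and the neutrophil-attracting chemokines Cxcl1 and Cxcl2 were at least 7.92-fold and at least 5.65-fold higher. Of 12 tested inflammasome genes 7 were higher and 1 was lower, with a median of 1.16. Casp1, the inflammasome protease, rose 10.5-fold, the interleukin-1 receptor antagonist Il1rn at least 6.66-fold, Nlrc5 at least 4.98-fold and Il1b, a cytokine that Casp1 activates and that is also in the target list, 6.07-fold.

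The signalling steps between receptor and nucleus moved less as a list. Of 31 tested downstream genes 12 were higher and 6 lower, with a median of 0.08. Irf7, a transcription factor of interferon induction, rose 15.97-fold, Irf5 at least 2.51-fold and the adaptor Traf3 2.20-fold. The adaptor Traf1, which is also in the NF-kB target list, fell 5.44-fold. Traf1 averaged 8.05 ± 0.09 in mutant castrated and 7.80 ± 0.47 in mutant intact prostate (SD, n = 6 each). In control it was 10.24 ± 0.21 (n = 3). Irf5, like Tlr7, was highest in mutant intact replicate 1 (10.77). Of 19 tested negative regulators 7 were higher and 1 lower, with a median of 0.15, and 8 of 19 is close to the 43.7% called among all tested genes. The nuclear IkB proteins Bcl3 and Nfkbid rose 4.64-fold and at least 2.39-fold, the cytokine signalling inhibitor Socs3 4.29-fold and the phosphatase Dusp1 2.48-fold.

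Of 11 tested cofactors of ligand binding and receptor folding 4 were higher and 2 were lower, a count that is not read as a feature of the list beside 43.7% of all tested genes called. The lipopolysaccharide-binding protein Lbp rose 8.78-fold and Ly86, a partner of a Toll-like receptor homologue, 6.58-fold. Both that fell are chaperones of Toll-like receptors in the endoplasmic reticulum. Cnpy3 was 8.18 ± 0.14 in mutant castrated and 8.42 ± 0.10 in mutant intact prostate, against 10.06 ± 0.07 in control, 3.12-fold lower in mutant intact, and Hsp90b1 was 2.78-fold lower.

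Castration changed none of these genes past the threshold. Between mutant castrated and mutant intact prostate 0 of the 34 were called, and 0% of all 16670 tested genes were called by limma, while at an unadjusted p under 0.05 there were 3 of the 34 (Nfkb1, Ly96 and Irak4) and 15.7% of all tested genes. Log2 fold changes of the 34 lay between -0.56 and 0.18, with a median of -0.05 against 0.01 over all tested genes. Cd14 differed by -0.01, with a 95% interval of -0.33 to 0.32, Tlr2 by -0.37 (interval -0.78 to 0.04), Relb by -0.14 (-0.36 to 0.07) and Tnf by -0.14 (-0.52 to 0.23). For each of these 4 genes the interval excluded a fall as large as the rise over control, but not a small change. The widest were those of Tlr7 (-1.12 to 0.67), Ticam2 and Tlr13, the genes high in mutant intact replicate 1.

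The lowest adjusted p values were those of Nfkb1 and Ly96. Nfkb1 averaged 11.07 ± 0.11 in mutant castrated and 11.36 ± 0.12 in mutant intact prostate (SD, n = 6 each), and its log2 fold change was -0.30 (SE 0.07, limma adjusted p = 0.097). Ly96 ran from 9.50 to 10.39 (median 9.94) in mutant castrated and from 10.03 to 10.75 (median 10.63) in mutant intact prostate, and its log2 fold change was -0.56 (SE 0.15, limma adjusted p = 0.112). Their ranges overlapped between the groups. Ly96 was called without castrated replicate 1, and both genes were called with array weights, so the count of 0 depended on these choices. Without castrated replicate 1, 268 of all tested genes were called, and without castrated replicate 5 the count was 234.

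The last comparison set mutant castrated against control prostate, groups that differ in genotype as well as castration and whose arrays also enter the comparisons above. Of the 34 genes 21 were higher and 2 lower, while 44.7% of all tested genes were called, 20.0% higher and 24.6% lower. Cd14 had a log2 fold change of 3.90, Tlr2 of 3.56, Tnf of 2.08, Nfkbie of 2.06, Relb of 1.88, Tnfaip3 of 1.65 and Irak1 of -0.96, all called by limma. Tlr13 and Tirap were not called (limma adjusted p = 0.0536 and 0.112). Without mutant intact replicate 1, which enters this comparison only through the shared estimate of spread, 24 genes were higher, with Tlr7, Tlr13 and Ticam2 added. Without the 4 arrays high in seminal vesicle transcripts 15 genes were higher and 1 lower, with Tlr1, Tlr3, Tlr4, Ticam1, Irak2, Irak4 and Pycard not called. Tlr3 was also not called without control replicate 1 or 3, nor were Irak2 and Pycard without control replicate 2 or 3. Irak2 also lost its call without the castrated animals of IDs above 4000. Tirap was called higher only without castrated replicate 2 and Ly96 lower only without castrated replicate 1.

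**Figure D4:**
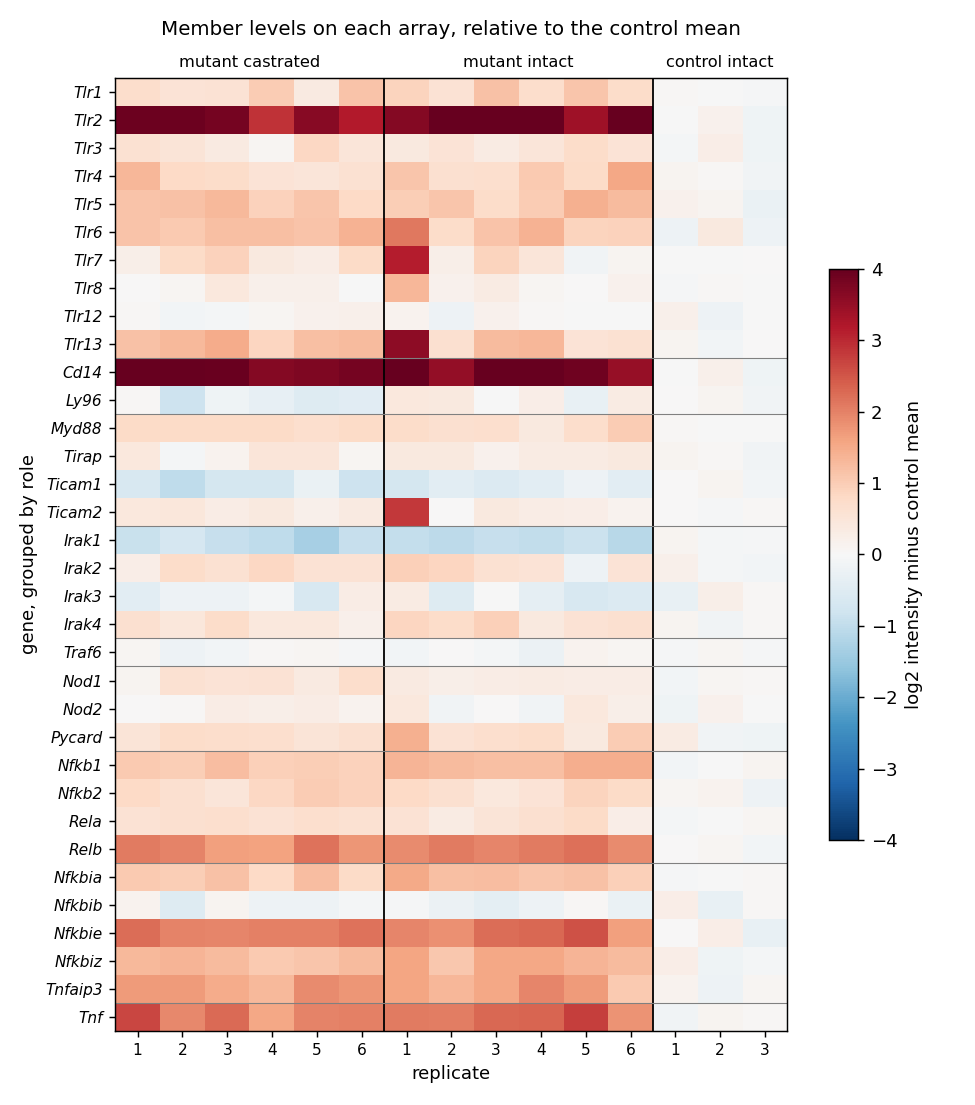
Log2 intensity of the 34 tested genes on each of the 15 arrays minus the mean of the 3 controls, with genes in rows grouped by role and arrays in columns by group and replicate. The colour scale ends at 4 in either direction, which the highest Tlr2 and Cd14 values exceed. Tlr2 and Cd14 are dark on all 12 mutant arrays, and Tlr7, Tlr13 and Ticam2 are dark on mutant intact replicate 1.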

How the data were processed

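The authors' processed values, deposited as 1 table of 45281 probes by 15 arrays, are linear intensity values. How the authors corrected background and normalized them is not given in the sources used here. Array medians lay between 151.35 and 152.47 and no value was below 105.78, which shows that some background signal remains and makes folds of dim genes too small. A MagMAX kit served for extraction and a TotalPrep kit for amplification and labelling, per the labels' protocols. A further deposited table gave the gene symbol of each probe, and its 15 signal columns, named by chip and position, were not used. Symbols were updated through RefSeq names. The members' 39 names were current, and 3 probes under other deposited names were kept apart.

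The model, in limma 3.58.1 (R 4.3.3) on log2 intensities, had a mean for each group, all 15 arrays, 12 residual degrees of freedom and eBayes, after a filter that kept 24456 probes. A gene with no array of the dimmer group above the background limit gets an "at least" fold, computed with those arrays at the higher of the limit and their own value. The scripts were tested on simulated data. Each array is a different mouse, and the number of arrays limits the precision. Replicate numbers follow the order of the samples only.

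The members, the pathway and marker lists and the tests were chosen with earlier results of these data known. Members called with a log2 fold change of at least 1 are described per array, and of each pathway list up to 4 called genes with the largest change are named. Genes named for tissue or cell type come from the marker lists. The alternatives tried were filters, probe choice, array weights, variance moderation, groups in the fit, normalization, background correction and arrays left out. The names of the genes altered in the genotype are not reported here.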

Additional observations from a re-analysis of the deposited data

Results flagged for a closer look

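Within the groups of 6, 8 values lay far from the other 5 by Dixon's criterion for 6 samples, of 78 sets of values examined. Chance alone marks about 1 set in 20. Mutant intact replicate 1 accounted for 4 of them, as the highest array for Tlr7 (10.50), Tlr8 (8.32), Tlr13 (10.81) and Ticam2 (9.98). Tlr7, Tlr8 and Tlr13 encode endosomal receptors and Ticam2 an adaptor of Tlr4. The summed intensity of macrophage markers was also highest on that array, and its part in these values was not tested.

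The other 4 were single values. Myd88 was lowest in mutant castrated replicate 5, at 11.85 where the other 5 castrated arrays lay between 11.93 and 11.95, a small gap in a narrow range. Tirap was lowest in mutant intact replicate 3 (10.28) and Irak2 in mutant intact replicate 5 (8.32). Nfkb1 was highest in mutant castrated replicate 3 (11.28).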

How the results depend on the processing

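Each comparison was fitted in 28 ways, and no gene called in a comparison changed direction there. Among genes not called, Tlr12 and Traf6 took both signs between mutant intact and control, and many did between castrated and mutant intact, Cd14 (-0.10 to 0.15) and Tnf (-0.26 to 0.08) among them. Between mutant intact and control, 16 of the 25 called genes were called in every fit, and none of the 9 others was called in any. Without the 4 intact arrays high in seminal vesicle transcripts, 15 members were higher and 1 lower, 5 genes of the pathway lists were lower, and 1412 and 2248 of all genes were higher and lower. The members that lost their call then were Tlr1, Tlr3, Tlr13, Tirap, Ticam1, Irak2, Irak4, Nod1 and Pycard, some with log2 fold changes close to or above those with all arrays (Tlr1 0.82, Tlr3 0.62, Tlr13 1.42, Nod1 0.43), in a fit with 1 control array. Castrated against control, that setting gave 1 member and 6 list genes lower, and 1611 and 2356 of all genes higher and lower. With the probes of a gene averaged, 1 member was lower in mutant intact than in control. Of the 17 tested other probes of called members, 8 were called in the same direction and 9 had the same direction without a call. Castrated against mutant intact, array weights gave 2 members lower, 1 list gene higher and 1 lower, and 398 and 220 of all genes higher and lower, and no filter on dim probes gave 1 gene higher.

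Leaving out 1 array at a time, members called higher and lower ranged from 18 to 23 and 1 to 2 (mutant intact against control), 0 to 0 and 0 to 1 (castrated against mutant intact) and 18 to 24 and 2 to 3 (castrated against control). List genes ranged from 42 to 50 and 8 to 12, 0 to 1 and 0 to 0, and 37 to 49 and 9 to 13 in the same order, and all genes from 2437 to 3135 and 3551 to 4288, 0 to 192 and 0 to 83, and 2660 to 3622 and 3452 to 4264. No paired analysis was possible because the labels number no replicates. Signal over background is low for Tlr8, Tlr12, Ticam2 and Nod2 among the tested members, so that small changes in them may be missed.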
